A study of Mus musculus with 30 samples.

Results

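Autophagy and lysosome genes were examined in the gastrocnemius muscle of mice that had lived for 64 weeks on a fixed or a repeatedly advanced light schedule. The genes were the 10 whose symbol in the deposited tables was Ulk1, Becn1, Map1lc3a, Map1lc3b, Gabarapl1, Sqstm1, Bnip3, Bnip3l, Ctsl or Tfeb, of 56951 gene symbols in all. Each symbol had 1 row, and all 10 were among the 12030 genes tested, whose mean was over 20 reads and over 0.5 FPKM (fragments scaled to transcript length and library size). All mice were wild-type C57BL/6J males housed singly with a running wheel, and all first spent some weeks in a fixed cycle and then in constant darkness. LD mice (n = 14, after 2 were lost to injury or death) were kept in light from 8:00 to 20:00. ADV mice (n = 16) had their light cycle advanced by 8 h every 4 days over the same weeks. The muscle was collected with the plantaris, during the light period, and the hour of collection of each mouse is not given in the sources used here.

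Autophagy is the route by which cytosol and organelles are enclosed in a membrane, the autophagosome, and broken down in the lysosome. The ULK complex starts the process, the Beclin 1 complex makes the lipid signal for membrane growth, ATG8 proteins coat the membrane, and receptors tie cargo to them. In skeletal muscle autophagy removes damaged mitochondria and proteins and rises with fasting and disuse, when FoxO transcription factors also raise Fbxo32 (atrogin-1), a ubiquitin ligase that marks muscle wasting and served here as the reference for each mouse.

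Each library was 1 mouse, with 18875468.5 to 28512674 read pairs on exons. Skeletal muscle markers stood high in every library, with Acta1 (skeletal actin) at 15110 to 20210 FPKM, and the 4 liver and pancreas markers summed to at most 8.63 FPKM. The trend of a library's values with the GC content of the transcripts averaged −0.066 ± 0.063 log2 per 10% GC in LD mice (SD, n = 14) and 0.057 ± 0.115 in ADV mice (n = 16; two-sided permutation test, p = 0.00047), and was steepest in ADV mice 24, 25, 27 and 34, numbered as in the labels. A clock gene score, the mean standardized level of genes high together with Bmal1 minus that of genes high when Bmal1 is low, averaged −1.07 ± 1.24 for LD mice against 0.94 ± 0.79 for ADV mice (permutation test, p = 3e-05), so schedule and clock phase at collection cannot be told apart. The summed FPKM of 7 slow fiber markers had a range of 52.8 to 1073 for LD mice and 265 to 2097 for ADV mice (p = 0.133), that of 4 endothelial markers was higher in ADV mice (p = 0.0124) and that of 4 fibroblast markers lower (p = 0.0485). In whole muscle, fewer cells of a type and less RNA per cell cannot be told apart.

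The 10 genes spanned a wide range of abundance. Per length, Sqstm1 was the highest with a mean of 278 FPKM over the 30 mice, followed by Map1lc3a at 108, Bnip3 at 92.9, Map1lc3b at 54.1, Gabarapl1 at 42.5, Tfeb at 30.8, Ulk1 at 19.4, Bnip3l at 13.8, Ctsl at 12.7 and Becn1 at 12.2 FPKM. The mean log2 FPKM ratio of neighbours in this order differed from 0 in 8 of 9 steps over the 30 mice (two-sided sign-flip permutation test, p under 0.05). The exception was Ctsl over Becn1, which held in 20 of 30 mice (p = 0.117). Among the other steps the order was least regular for Map1lc3a over Bnip3, seen in 23 of 30 mice (p = 2e-05). In ADV mice alone Bnip3l over Ctsl held in 12 of 16 mice (sign-flip permutation test, p = 0.117). These levels rest on the row that stood for each gene, such as the 6151 bases of the Ctsl row. Exons of another gene on the opposite strand covered 54.1% of the exon bases of Becn1 in GENCODE vM39, those of Cntd1, and 30.5% of Gabarapl1, 28.2% of Ctsl, 24.4% of Sqstm1, 13.8% of Bnip3 and 2.7% of Map1lc3b. A gene on the same strand covered 6.4% of Ctsl. The sources used here do not say whether the counting used the strand, so reads of such partners may be included.

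**Figure D1:**
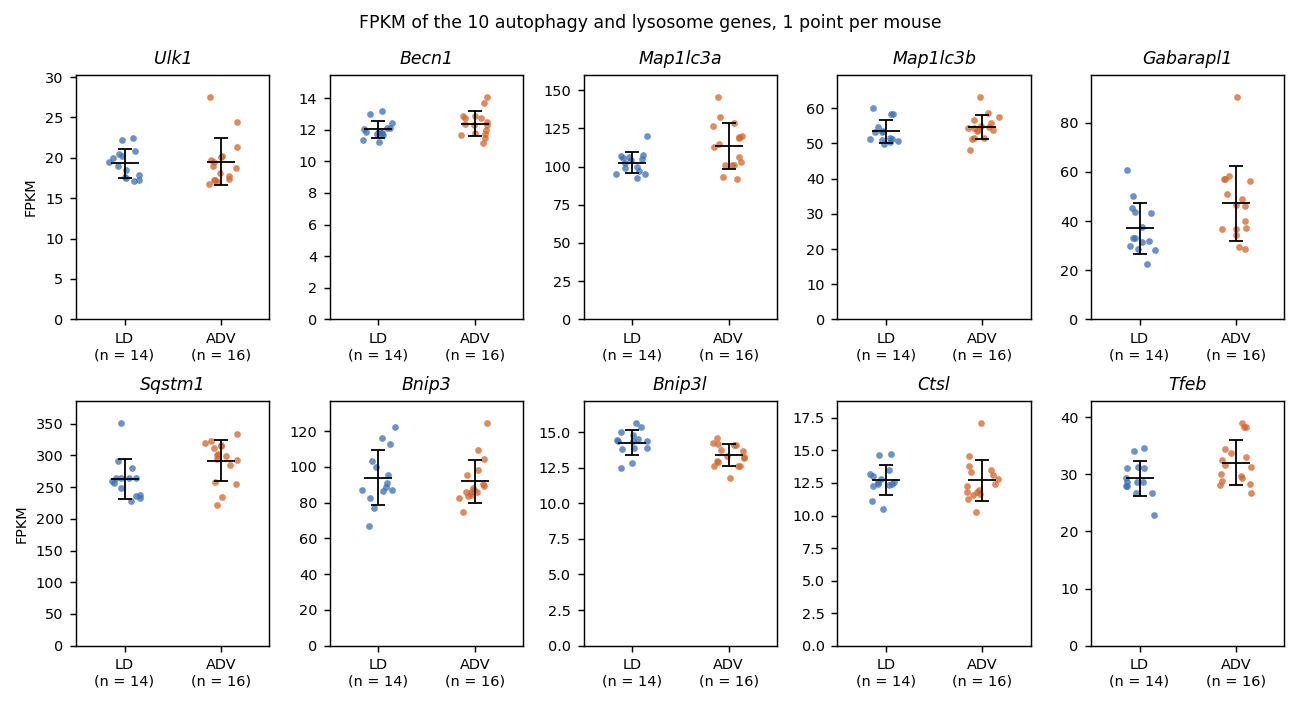
FPKM of each gene (vertical axes, from 0) in LD mice (blue, n = 14) and ADV mice (orange, n = 16); each point is a mouse, and the bars give the mean and SD. The groups overlapped for every gene, and Gabarapl1 of ADV mouse 35 stood highest at 90.6 FPKM.

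None of the 10 genes passed the test between the schedules. With edgeR's quasi-likelihood test over all genes, 0 of 10 had an FDR (the p adjusted over all genes tested) under 0.05 together with a fold change over 1.3, against 2.09% of the genes tested, and 0 of 10 had an FDR under 0.05 alone, against 10.9%. At an unadjusted p under 0.05 there were 3 of 10, Bnip3l, Map1lc3a and Gabarapl1, against 30.0% of all genes. DESeq2 called 1 of 10 at an FDR under 0.05, Bnip3l (FDR = 0.0396), against 13.9% of all genes, and the Wilcoxon rank-sum test on FPKM called 0 of 10, against 9.69% of all genes. The median log2 fold change of the 10 genes was 0.0234, against 0.00349 over all genes tested, and 6 of 10 were higher in ADV mice, against 51.0% of all genes.

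Ulk1 encodes the kinase that starts autophagosome formation and lies at chr5:110932354-110957963 (GRCm39, minus strand). Its lowest, median and highest FPKM were 17.2, 19.2 and 22.4 in LD mice and 16.8, 18.8 and 27.6 in ADV mice. The ADV mice lay within or around the LD range, apart from mice 30 and 35 above it, at 24.4 and 27.6 FPKM. The log2 fold change of ADV over LD was −0.0022 (95% interval −0.14 to 0.14; FDR = 0.988 in edgeR's quasi-likelihood test).

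Becn1 encodes Beclin 1, a scaffold of the lipid kinase complex of early autophagosomes (chr11:101176778-101193112, minus strand). It measured 11.2, 11.9 and 13.2 FPKM (lowest, median, highest) in LD mice and 11.1, 12.4 and 14.1 FPKM in ADV mice, with nearly full overlap. By the SD of log2 CPM (counts scaled to library size) this was the steadiest of the 10 genes in both groups. Its log2 fold change was 0.03 (−0.04 to 0.10; FDR = 0.599), and 0.09 ± 0.05 after removal of the GC content trend (FDR = 0.2493).

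In the 250 bases upstream of each row's start, 3 motifs were searched on both strands: the FoxO motif GTAAACA, the E-box CACGTG read by clock and TFE factors, and the CLEAR element of lysosomal genes, which contains the E-box. The FoxO motif was in the window of 1 of 10 genes, Becn1, and of 2.203% of 12029 genes. The E-box was in that of 1 of 10, Bnip3, and of 8.288% of all genes, and the CLEAR element in that of 0 of 10 and 0.507% of all genes. Both windows are shown because they are the matches found among the 10 genes; they are read from GRCm39 on the minus strand, at chr11:101193133-101193189 and chr7:138511313-138511368, with the motif in capitals. The match began 52 bases upstream of the row's start in Becn1 and 108 bases upstream in Bnip3.
Becn1: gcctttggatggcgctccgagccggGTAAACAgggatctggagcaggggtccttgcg
Bnip3: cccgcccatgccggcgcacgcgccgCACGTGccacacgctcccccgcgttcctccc
A match is a run of letters and not a binding site, and other letters that a factor may bind were not searched. In GENCODE vM39 the Sqstm1 transcript starts at base 50102885 of chr11. The Sqstm1 window, chr11:50101655-50101904, was therefore not upstream of that start.

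Of the 3 ATG8 genes among the 10, whose products coat the growing membrane, Gabarapl1 and Map1lc3a differed more than Map1lc3b, with larger values in ADV mice. Map1lc3a (chr2:155118217-155119993, plus strand) measured 92.2, 103 and 120 FPKM (lowest, median, highest) in LD mice and 91.7, 114 and 146 FPKM in ADV mice. In the ADV group 5 of 16 lay above every LD mouse and 1 below. The log2 fold change was 0.13 ± 0.05 (SE; FDR = 0.104 in edgeR's test). The transcript holds 63.1% GC, against a median of 50.4% for the genes tested, and after removal of the GC content trend of each library the log2 fold change was −0.04 ± 0.05, with the sign turned.

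Map1lc3b (chr8:122317100-122325499, plus strand), the form usually followed as LC3 protein, measured 49.98, 52.4 and 59.9 FPKM in LD mice and 48.2, 54.4 and 63.3 FPKM in ADV mice. The ranges nearly coincided, and the log2 fold change was 0.02 (−0.06 to 0.10; FDR = 0.793).

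Gabarapl1 (chr6:129510123-129519309, plus strand), a member of the GABARAP branch that FoxO3 raises in atrophying muscle, had the largest difference of the 10 genes. It measured 22.5, 33.01 and 60.9 FPKM in LD mice and 28.8, 46.3 and 90.6 FPKM in ADV mice. In 14 of 16 ADV mice the value was above the LD median, and 3 of 14 LD mice lay below every ADV mouse. The fold change was 1.26 (95% interval 1.03 to 1.55), with an FDR of 0.118 in edgeR's test and 0.157 in the Wilcoxon test, and with the GC content trend removed the log2 fold change was 0.29 ± 0.14 in place of 0.33 ± 0.14. In LD mice Gabarapl1 was higher where the slow fiber markers were (r = 0.624, p = 0.017; rho = 0.459, p = 0.101; r = 0.498 without the 2 mice farthest from the median marker sum), while in ADV mice r was 0.437 (p = 0.0887; rho = 0.326, p = 0.216; 0.273 without 2). Gabarapl1 also went against other library measures in LD mice. These were the skeletal muscle markers (r = −0.745, permutation p = 0.00211), the liver and pancreas markers (r = −0.662, p = 0.0102) and the GC content trend (r = −0.591, p = 0.0251). Without the 2 mice farthest from the median of each measure, r was −0.465, −0.219 and −0.363. In ADV mice r was −0.157, −0.267 and 0.0844. The part of fiber type, or of these measures, in the difference between the schedules was not tested.

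Sqstm1 encodes p62, the receptor that binds ubiquitin and ATG8 proteins (chr11:50090979-50101654, minus strand). It measured 229, 262 and 351 FPKM in LD mice and 222, 299 and 334 FPKM in ADV mice. The highest of all 30 mice was LD mouse 33, yet 12 of 16 ADV mice lay above the LD median and only 1 of 14 LD mice lay above the ADV median. The log2 fold change was 0.13 ± 0.07 (FDR = 0.170 in edgeR's test; Wilcoxon rank-sum test, p = 0.0194, FDR = 0.106). Sqstm1 was lower in LD mice with more slow fiber markers (r = −0.755, p = 0.00462; rho = −0.842, p = 0.00033; r = −0.735 without 2 mice). In LD mice it also went with the skeletal muscle (r = 0.643, p = 0.0123; rho = 0.749, p = 0.00288; 0.745 without 2), macrophage and leukocyte (r = 0.713, p = 0.00607; rho = 0.609, p = 0.0238; 0.437 without 2) and fibroblast markers (r = 0.599, p = 0.0175; rho = 0.645, p = 0.0143; 0.553 without 2), and against the endothelial markers (r = −0.62, p = 0.0118; rho = −0.675, p = 0.01; −0.598 without 2). In ADV mice the values for slow fiber markers were closer to 0 (r = −0.160, p = 0.549; rho = 0.00294, p = 0.996; r = −0.123 without 2 mice). There r was 0.497 for the skeletal muscle markers (permutation p = 0.0518) and −0.105 for the endothelial markers (p = 0.699). For the macrophage and leukocyte and the fibroblast markers the sign was the other way, at −0.372 (p = 0.157) and −0.419 (p = 0.107). The part of these cells and fibers was not tested. Without LD mouse 33 the log2 fold change was 0.18 with an FDR of 0.0479, so this mouse decided on which side of the threshold the gene fell, and after removal of the GC content trend it was 0.08 ± 0.06 (FDR = 0.4425).

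Bnip3 and Bnip3l encode related receptors of the outer mitochondrial membrane that recruit ATG8 proteins for mitophagy, and FoxO3 and low oxygen raise them. Bnip3 (chr7:138492565-138511235, minus strand) measured 66.9, 89.8 and 122 FPKM in LD mice and 74.8, 87.8 and 125 FPKM in ADV mice. The medians lay close together, and LD mouse 23 was below every ADV mouse (log2 fold change −0.05 ± 0.07; FDR = 0.699).

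Bnip3l, also called Nix (chr14:67222688-67246326, minus strand), was the gene closest to the threshold, with lower values in ADV mice. It measured 12.5, 14.4 and 15.6 FPKM in LD mice and 11.8, 13.3 and 14.6 FPKM in ADV mice. In 12 of 14 LD mice it lay above the ADV median, and 4 of 14 lay above every ADV mouse. The fold change was 0.928 (95% interval 0.880 to 0.979; FDR = 0.0575 in edgeR's test). The FDR was under 0.05 without any of LD mice 35 and 36 or ADV mice 21, 22, 26 and 36, at 0.0409 to 0.0498, and at 0.0461 where only genes with a mean over 100 reads were tested. Its transcript has the lowest GC content of the 10 genes, 42.1%, and with the GC content trend removed the log2 fold change was −0.01 ± 0.04 (FDR = 0.955) in place of −0.11 ± 0.04.

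Ctsl encodes cathepsin L, a lysosomal protease induced in wasting muscle (chr13:64507151-64518704, minus strand). It measured 10.5, 12.6 and 14.7 FPKM in LD mice and 10.3, 12.4 and 17.1 FPKM in ADV mice, and the highest value was that of ADV mouse 27, the library with the highest sum of liver and pancreas markers, 8.63 FPKM. The log2 fold change was −0.02 ± 0.05 (FDR = 0.817). In ADV mice Ctsl was higher where the macrophage and leukocyte markers were (r = 0.608, p = 0.0109; rho = 0.5, p = 0.05; r = 0.621 without 2 mice) and where the adipocyte markers were (r = 0.705, p = 0.00257; rho = 0.662, p = 0.00612; r = 0.441 without 2 mice), and it followed the liver and pancreas markers (r = 0.777, p = 0.00115; rho = 0.612, p = 0.0134; r = 0.416 without 2 mice). In LD mice r was 0.126 (p = 0.67; rho = −0.134, p = 0.65) for the macrophage and leukocyte markers, −0.212 (p = 0.467; rho = −0.433, p = 0.124) for the adipocyte markers and −0.511 (p = 0.0605; rho = −0.424, p = 0.132) for the liver and pancreas markers. Ctsl also went with the fibroblast markers in ADV mice (r = 0.666, permutation p = 0.00571, and 0.516 without 2 mice), against r = 0.069 in LD mice. In LD mice it went against the skeletal muscle markers (r = −0.678, permutation p = 0.00766, and −0.383 without 2). The same held for the GC content trend (r = −0.616, permutation p = 0.0183, and −0.239 without 2). In ADV mice these were 0.0403 and 0.305. Each such p is unadjusted, from relations of every gene to 10 library measures in both groups, and the part of these cells and measures was not tested.

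Tfeb encodes the transcription factor of lysosomal and autophagy genes that mTORC1 holds in the cytosol (chr17:48047955-48103344, plus strand). It measured 22.9, 28.7 and 34.6 FPKM in LD mice and 26.7, 31.5 and 39.0 FPKM in ADV mice. Of 16 in the latter group, 13 lay above the LD median and 3 above every LD mouse, with a log2 fold change of 0.12 ± 0.06 (FDR = 0.212; Wilcoxon, p = 0.0425, FDR = 0.165). Like Map1lc3a it holds 63.1% GC, and with the GC content trend removed the log2 fold change was −0.04 ± 0.05.

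**Figure D2:**
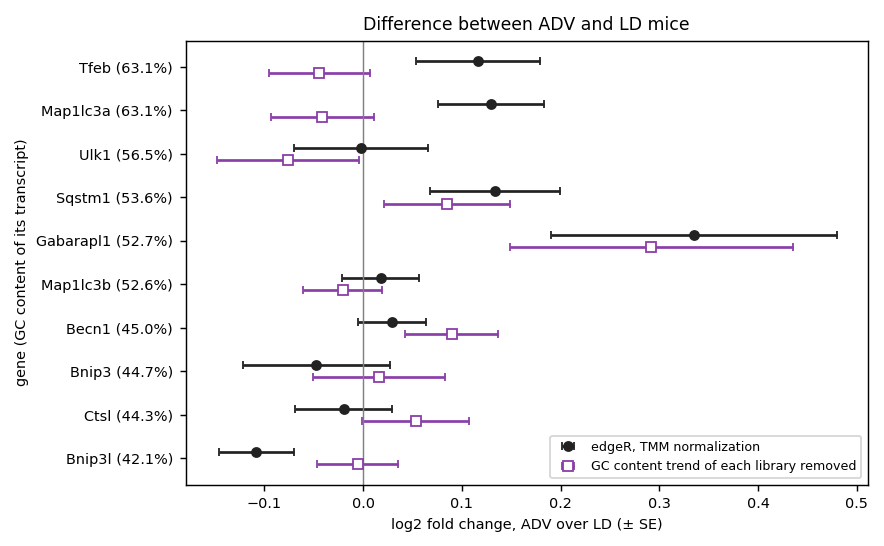
Log2 fold change of ADV over LD mice with its SE (horizontal axis) for the 10 genes, ordered by the GC content of the transcript (vertical axis), from edgeR with TMM normalization (black circles) and after removal of the GC content trend (open purple squares). Removing the trend moved Tfeb and Map1lc3a from 0.12 and 0.13 to −0.04 and Bnip3l from −0.11 to −0.01, while Gabarapl1 moved from 0.33 to 0.29.

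The rest of the pathway was followed in lists of 143 genes that include the 10, and all 143 were tested. Of these, 14 had an FDR under 0.05 in edgeR's test, 5 higher and 9 lower in ADV mice, which is 9.79% against 10.9% of all genes, and 0 of 143 also passed the fold change of 1.3. The median log2 fold change was −0.00223, against 0.00349 over all genes tested. In the ULK complex 1 of 5 genes passed, Ulk2 (lower), a close relative of Ulk1 and the most abundant of the complex, at 22.9 ± 1.1 FPKM in LD mice and 21.2 ± 1.8 in ADV mice (SD; log2 fold change −0.13, FDR = 0.0324). In the list of the class III PI3K complex and related genes 1 of 9 fell, Atg14, the subunit that directs the complex to autophagy (−0.25, FDR = 0.0327). The most abundant gene of that list, Vmp1, which is not a subunit of the complex, stood at 17.02 ± 1.9 and 16.6 ± 2.1 FPKM. None of the 17 genes of ATG8 conjugation and lipid transfer passed (Atg9a, the most abundant, had 37.7 ± 2.8 and 37.8 ± 2.1 FPKM), and none of the 5 ATG8 genes.

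Among 11 autophagy receptors 1 rose, Tex264, a receptor for the endoplasmic reticulum, from 15.3 ± 1.4 to 17.5 ± 1.8 FPKM (FDR = 0.0312). Of 10 mitophagy genes 1 rose, Phb2, an inner membrane protein, from 57.9 ± 5.8 to 67.2 ± 6.4 FPKM (FDR = 0.0119), and Pink1, the kinase that marks damaged mitochondria and the most abundant of the list, had 322 ± 21 and 361 ± 46 FPKM (FDR = 0.0798). Of 13 genes of autophagosome and lysosome fusion 3 fell, Vps39 of the HOPS tether (−0.14, FDR = 0.00663), the SNARE Stx17 (−0.14, FDR = 0.0209) and the tether Epg5 (−0.21, FDR = 0.0448), and Rab7, the most abundant, had 116 ± 23 and 117 ± 18 FPKM. These falls were each smaller than the 1.3-fold limit.

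Of 25 genes in the list of lysosomal hydrolases 2 rose, the sialidase Neu1 (0.16, FDR = 0.0441) and the hexosaminidase Hexa (0.12, FDR = 0.0468), and 1 fell, the protease Ctso (−0.28, FDR = 0.0240). Psap, the most abundant of that list but not itself a hydrolase, had 277 ± 15 and 279 ± 17 FPKM. Of 24 genes of the lysosomal membrane and proton pump the pump subunit Atp6v1b2 rose (0.14, FDR = 0.0282) and Scarb2, a membrane protein that carries glucocerebrosidase to the lysosome, fell (−0.12, FDR = 0.0320), with Lamp1, the most abundant, at 204 ± 7 and 206 ± 10 FPKM. Of 24 genes of transcriptional and mTORC1 control 2 fell, Rragd, a GTPase that brings mTORC1 to the lysosome, from 53.2 ± 3.0 to 46.4 ± 4.0 FPKM (FDR = 0.00379), and Prkaa2, a catalytic subunit of AMPK, from 31.2 ± 2.2 to 26.2 ± 4.0 FPKM (FDR = 0.0130), and Lamtor1, the most abundant, had 63.7 ± 3.8 and 68.2 ± 7.6 FPKM. With the GC content trend removed, 5 of the 14 genes kept an FDR under 0.05 (Atg14, Vps39, Epg5, Rragd and Prkaa2), without the 4 ADV mice of steepest trend 3 did (Vps39, Rragd and Prkaa2), and 0 did once the clock gene score entered the fit. In that fit the values of several were no smaller, such as −0.24 for Rragd (FDR = 0.1581), 0.22 for Tex264 (FDR = 0.2414) and 0.15 for Hexa (FDR = 0.2763), and those of others were smaller, such as −0.11 for Atg14, 0.11 for Phb2 and −0.08 for Vps39. When mice were left out 1 at a time, Phb2, Vps39, Stx17, Ctso, Rragd and Prkaa2 had an FDR under 0.05 in 30 of 30 fits, Ulk2 and Tex264 in 28, Atp6v1b2 in 29, Atg14 and Scarb2 in 26, Epg5 in 14, and Neu1 and Hexa in 9.

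The spread between mice was compared next, as the SD of log2 CPM (counts scaled to library size) within each group. It was larger in ADV mice for 9 of 10 genes, against 62.7% of all genes tested. By the mean absolute deviation it was also larger in ADV mice for 9 of 10, but for 5 of 10 without the 4 ADV mice of steepest GC content trend. The exception was Bnip3, with an SD of 0.23 in LD mice and 0.19 in ADV mice. Gabarapl1 was the most variable of the 10 in both groups, with SDs of 0.38 and 0.44, more than 89.1% and 92.3% of all genes. Becn1 was the least variable, with SDs of 0.07 and 0.10, more than only 2.2% and 6.5% of all genes, and Map1lc3b and Bnip3l also lay in the lowest 15% of genes in both groups. The largest ratio of SDs was 1.84, for Map1lc3a (0.10 in LD mice and 0.18 in ADV mice).

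In a test of unequal spread fitted across all genes (limma on absolute deviations from the group mean), 0 of 10 genes had an FDR under 0.05, against 0.0333% of all genes, and 1 of 10 had an unadjusted p under 0.05, Map1lc3a (p = 0.0203, FDR = 0.417), against 10.1% of all genes. For Map1lc3a the mean absolute deviation was larger in ADV mice by 0.08, and with the GC content trend removed it was smaller by 0.02. Fbxo32 itself spanned 57.1 to 124 FPKM across LD mice and 35.6 to 223 FPKM across ADV mice, with SDs of 0.37 and 0.77 (p = 0.0301, FDR = 0.460), and the difference in its mean missed the threshold (log2 fold change 0.07 ± 0.21, FDR = 0.852). A slope on Fbxo32 was therefore set by a wider range in ADV than in LD mice.

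**Figure D3:**
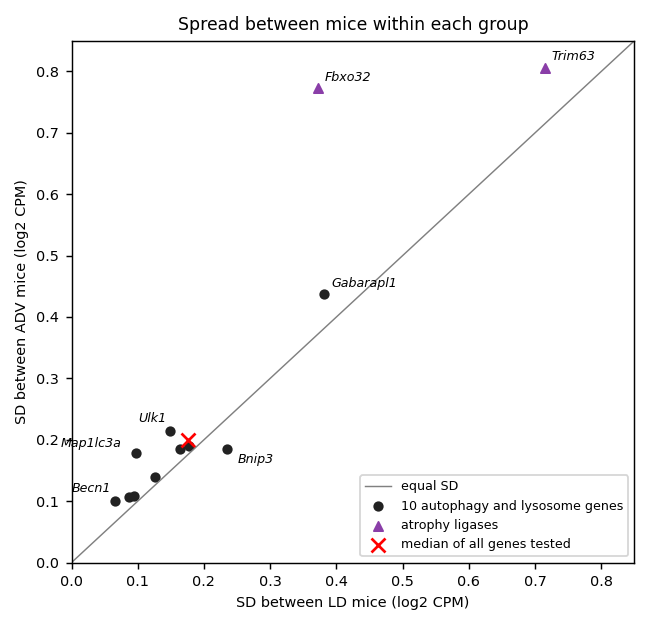
SD of log2 CPM between LD mice (horizontal axis, n = 14) and between ADV mice (vertical axis, n = 16) for the 10 genes (black circles), for Fbxo32 and Trim63 (purple triangles) and for the median of all genes tested (red cross); the line marks equal SDs. Bnip3 was the gene of the 10 below the line, and Fbxo32 lay far above it at 0.37 and 0.77.

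The relation of each gene to Fbxo32 was fitted within the groups as the change in log2 count per unit of log2 Fbxo32, both slopes in the same edgeR fit. In ADV mice the slope was called at an FDR under 0.05 for 1 of 10 genes, Ulk1, against 1.41% of all genes, and had an unadjusted p under 0.05 for 4 of 10, against 16.6%. The slope was positive for the called gene, against 0.923% of all genes with a called positive slope, and for all 4 at the unadjusted p, against 9.14%. In LD mice 0 of 10 were called, against 0.0% of all genes, and 2 of 10 had an unadjusted p under 0.05, Map1lc3b and Ulk1, against 4.04%. As no gene at all was called in LD mice, the count of 0 does not show that the relation was absent there. Positive slopes were seen for 9 of 10 genes in LD mice and 7 of 10 in ADV mice, against 50.9% and 47.7% of all genes.

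Ulk1 rose with Fbxo32 by 0.22 ± 0.04 log2 units per unit in ADV mice (SE; FDR = 0.00759 in edgeR's quasi-likelihood test). In LD mice the slope was as large, 0.23 ± 0.10 (p = 0.0258, FDR = 0.9998), and was not called at its wider error. Across the 16 ADV mice Pearson's r was 0.779 (permutation test, p = 0.00037) and Spearman's rho 0.735 (p = 0.00164), and r was 0.664 without the 2 mice farthest from the Fbxo32 median. Across the 14 LD mice r was 0.569 (p = 0.0352) and rho 0.556 (p = 0.0421), with r = 0.483 without 2 mice. These are 2 of 20 relations to Fbxo32 that were computed, and their p-values are not adjusted. The ADV call depended on mice 30 and 35, which had both the highest Fbxo32, at 193 and 223 FPKM, and the highest Ulk1. Without mouse 35 the slope was 0.18 (FDR = 0.0632), and without both it was 0.13 (FDR = 0.3003). Without the 4 mice of steepest GC content trend the slope was 0.22 (FDR = 0.0817), and with the trend removed it was 0.26 (FDR = 0.00204). With Trim63 (MuRF1), the other muscle ubiquitin ligase, in place of Fbxo32 the Ulk1 slope in ADV mice was 0.23 (FDR = 0.000387). Mice 30 and 35 also had the highest Trim63, at 649 and 657 FPKM, and without them that slope was 0.16 (FDR = 0.2087).

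Bnip3l followed Fbxo32 in ADV mice with a slope of 0.10 ± 0.03 that missed the threshold (FDR = 0.0963), with r = 0.700 (permutation test, p = 0.00243), rho = 0.635 (p = 0.00965) and r = 0.739 without 2 mice. Its lowest value, 11.8 FPKM, was in mouse 28, where Fbxo32 was 38.1 FPKM. Without mice 30 and 35 the slope was 0.15 (FDR = 0.0669), and with the GC content trend removed the slope was 0.03 ± 0.04. Bnip3 had a slope of 0.15 ± 0.06 in ADV mice (FDR = 0.198), with r = 0.631 (p = 0.00851), rho = 0.674 (p = 0.0053) and r = 0.567 without 2 mice. In LD mice the slopes of both genes were of like size with wider errors, 0.09 ± 0.07 for Bnip3l and 0.17 ± 0.14 for Bnip3 (FDR = 0.9998 for each). Gabarapl1 had the steepest slope of the 10 in both groups, 0.33 ± 0.26 in LD mice and 0.31 ± 0.12 in ADV mice (FDR = 0.156), but its r of 0.501 in ADV mice (p = 0.048; rho = 0.371, p = 0.159) was 0.228 without 2 mice, so the relation rested on those mice. On Trim63 the ADV slope of Gabarapl1 was 0.39 ± 0.10 (FDR = 0.0303), and 0.33 ± 0.16 (FDR = 0.3624) without mice 30 and 35.

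In LD mice Map1lc3b tracked Fbxo32 most closely, with r = 0.697 (permutation test, p = 0.00566), rho = 0.736 (p = 0.00352) and r = 0.772 without 2 mice, and a slope of 0.18 ± 0.07 (p = 0.0183, FDR = 0.9998). In ADV mice its slope was 0.05 ± 0.03, with r = 0.378 (permutation test, p = 0.149) and rho = 0.488 (p = 0.0577). On Trim63 the LD slope of Map1lc3b was 0.11 ± 0.03 (FDR = 0.0438). The ADV slope on Trim63 was of like size, 0.09 ± 0.03, but was not called (FDR = 0.1042). Without the 2 ADV mice of highest Fbxo32 it was 0.14 ± 0.04 (FDR = 0.159). On Trim63, 496 genes were called in LD mice where 0 had been on Fbxo32. Sqstm1, Becn1, Ctsl, Tfeb and Map1lc3a had slopes from −0.08 to 0.07 in ADV mice and from −0.03 to 0.21 in LD mice, with unadjusted p-values of at least 0.0864. The difference of the slopes between ADV and LD mice had an FDR under 0.05 for 0 of 10 genes, against 0.0% of all genes, and an unadjusted p under 0.05 for 0 of 10, against 1.74%. It ranged from −0.20 ± 0.10 for Ctsl to 0.03 ± 0.08 for Becn1, and was −0.01 ± 0.11 for Ulk1, with SEs from 0.07 to 0.28 over the 10 genes. With no gene called and SEs of this size, the test does not show that the slopes were equal.

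**Figure D4:**
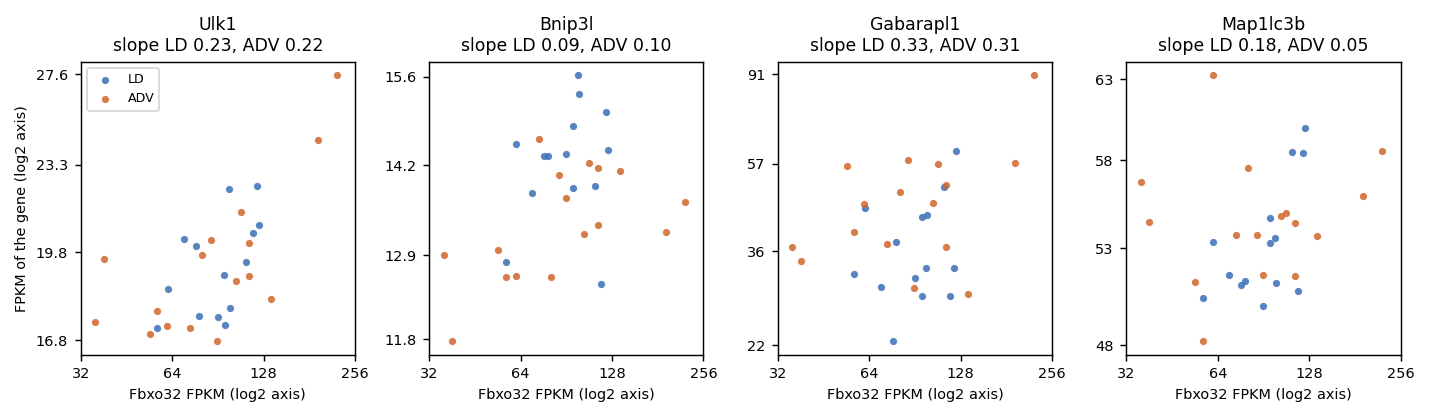
FPKM of Ulk1, Bnip3l, Gabarapl1 and Map1lc3b (vertical axes, log2) against FPKM of Fbxo32 (horizontal axes, log2) in LD mice (blue, n = 14) and ADV mice (orange, n = 16), 1 point per mouse, with the fitted slopes above each panel. The ADV mice reach 35.6 and 223 FPKM of Fbxo32, beyond the LD range, and mouse 35 stands at the upper right for Ulk1 and Gabarapl1.

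In the wider pathway 4 of 143 genes had a slope on Fbxo32 with an FDR under 0.05 in ADV mice, against 1.41% of all genes, all positive, against 0.923%, and 0 of 143 in LD mice. Beside Ulk1 these were Foxo3, a FoxO factor (0.33 ± 0.06, FDR = 0.00749), Sesn1, a stress-induced inhibitor of mTORC1 (0.47 ± 0.10, FDR = 0.0102), and Retreg1, a receptor for the endoplasmic reticulum (0.57 ± 0.12, FDR = 0.0140), which were named after their values were seen. Without ADV mice 30 and 35 none of the 4 was called, with slopes of 0.26 (FDR = 0.160) for Foxo3, 0.41 (FDR = 0.157) for Sesn1 and 0.55 (FDR = 0.144) for Retreg1. Between the schedules these 3 did not pass, with log2 fold changes of −0.05, −0.01 and 0.17.

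The 10 genes were also compared with each other across the mice of each group, in 45 pairs. In LD mice 11 pairs had an r over 0.532, the value that reaches p = 0.05 with 14 mice, against 6.19% of all pairs of genes tested, and 3 were as far below 0. In ADV mice 6 pairs had an r over 0.497, the value for 16 mice, against 7.26% of all pairs, and 1 was as far below 0. With the GC content trend removed there were 14 and 2 such pairs in LD mice, against 6.19% of all pairs over the value, and 10 and 0 in ADV mice, against 6.41%. Those shares count positive r alone. Beyond the value on either side of 0 lay 12.2% of all pairs in LD mice and 14% in ADV mice. With the GC content trend removed these shares were 12% and 11.9%. The median r, as measured, was 0.198 in LD mice and 0.160 in ADV mice. Pairs share genes and libraries, so these counts are a description.

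The closest pair in LD mice was Gabarapl1 with Bnip3 (r = 0.866, permutation p = 0.00016; rho = 0.868, p = 0.00015; 0.708 without 2 mice). Bnip3 also went with Ctsl in LD mice (r = 0.794; rho = 0.785; 0.594 without 2 mice). In ADV mice r of Bnip3 with Ctsl was −0.1. Ulk1 and Sqstm1 went together in both groups, with r = 0.798 in LD mice (p = 0.00027; rho = 0.776; 0.659 without 2 mice) and r = 0.540 in ADV mice (p = 0.029; rho = 0.579; 0.520 without 2 mice). In ADV mice the closest pair was Ulk1 with Gabarapl1 (r = 0.751, p = 0.00062; rho = 0.656; 0.534 without 2 mice), which had an r of −0.1 in LD mice. Tfeb went against Gabarapl1 in LD mice (r = −0.675, p = 0.00858; rho = −0.596; −0.371 without 2 mice). With the GC content trend removed, r was 0.874 for Gabarapl1 with Bnip3, 0.741 for Ulk1 with Sqstm1 and −0.503 for Tfeb with Gabarapl1 in LD mice, and 0.689 for Ulk1 with Gabarapl1 in ADV mice. Some of these genes shared a relation to a library measure. In LD mice Bnip3, Gabarapl1 and Ctsl went against the skeletal muscle markers (r = −0.735, −0.745 and −0.678), and Tfeb went with them (0.781). Without the 2 mice farthest from the median marker sum these were −0.424, −0.465, −0.383 and 0.659. In ADV mice they were −0.476, −0.157, 0.0403 and 0.717. The part of this measure in the pairs was not tested. The difference in r between the groups was not tested.

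**Figure D5:**
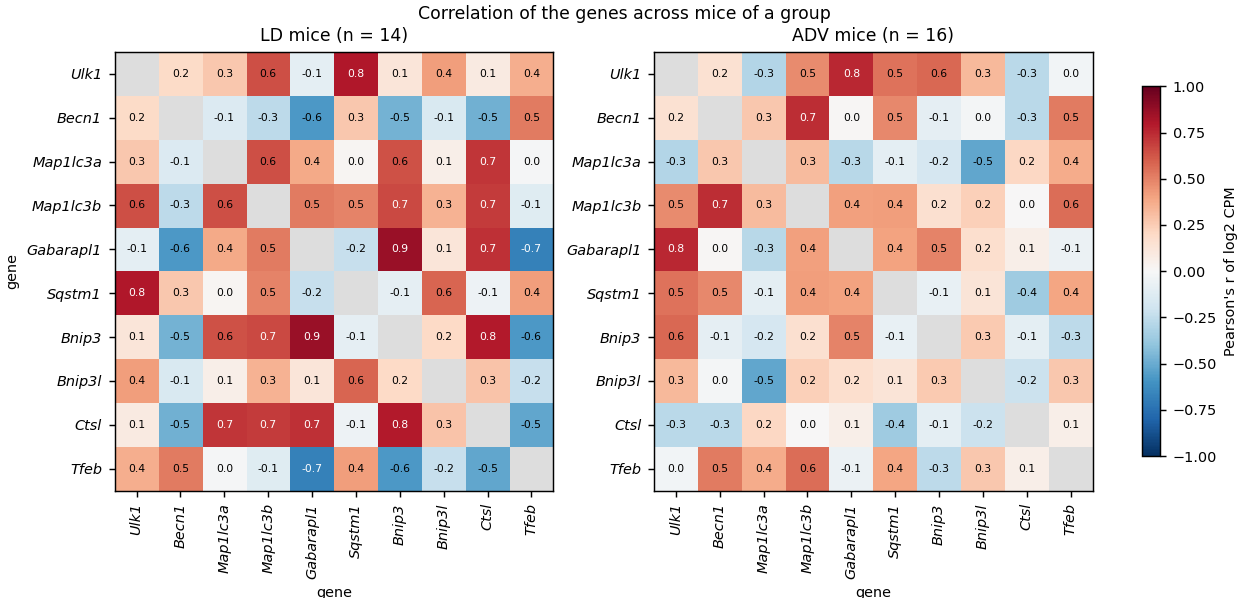
Pearson's r of log2 CPM for each pair of the 10 genes (both axes) across LD mice (left, n = 14) and ADV mice (right, n = 16), from −1 (blue) to 1 (red), with r in each square. In LD mice the squares of Bnip3 with Gabarapl1 and Ulk1 with Sqstm1 are the darkest, and in ADV mice that of Ulk1 with Gabarapl1.

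Over all genes tested, those most like each gene were found by Pearson's r of log2 CPM over the 30 mice after the group means were subtracted. Such values are high in part because they were picked as the highest of all genes, and the GC content trend was not removed. The closest were Lrrc2 (r = 0.874) and Acss1 (0.849) for Gabarapl1, Pptc7 (0.852) and Gm43302 (0.845) for Bnip3, Anapc5 (0.836) and Ptov1 (0.829) for Tfeb, and Trmt1 (0.827) and Gaa (0.806) for Sqstm1. They were Tmem140 (0.821) and Stab2 (0.814) for Ulk1, Klhl22 (0.819) and Rnf113a2 (0.794) for Map1lc3b, and Agpat1 (0.803) and Gpr180 (0.8) for Becn1. The values were lower for Map1lc3a, with Tarbp2 (0.789) and Mrps7 (0.787), for Ctsl, with Selenbp1 (0.759) and Pxmp4 (0.733), and for Bnip3l, with Atl2 (0.722) and Sugt1 (0.720). Fbxo32 was closest to Klhl38 (0.922). Of these genes Gaa, the lysosomal glucosidase whose loss causes Pompe disease, belongs to the pathway lists.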

How the data were processed

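Gastrocnemius RNA of 14 LD and 16 ADV mice was poly(A)-enriched and sequenced as stranded paired-end libraries, 1 per mouse. The authors used Trimmomatic for trimming and STAR 2.7.10a for mapping on GRCm39, dropped reads of low mapping quality and counted on exons of 57186 UCSC known canonical transcripts with HOMER 4.11 (versions from the submitters' processing notes). The deposited raw values are estimated counts, since the authors' HOMER counts each mate as 0.5 read, and 14.8% were not whole; they were rounded. The deposited FPKM values were made by the authors from the same alignments and served for levels and the Wilcoxon test. The longest row with a mean over 20 reads was kept per symbol (232 symbols had more than 1 row).

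Groups came from the labels. edgeR 4.0.16 (quasi-likelihood, TMM, R 4.3.3) gave the differences and, with Fbxo32 log2 CPM centred within groups, the slopes; limma 3.58.1 gave the spread test (prior count 2); the Benjamini-Hochberg adjustment (FDR) ran over all genes tested. Permutation tests drew 100000 resamples, so 1e-05 is the smallest p they can give (scipy 1.17.1). SDs and SEs are over mice. Alternatives were DESeq2 1.42.0, limma on log2(FPKM + 0.1) and log2(FPKM + 1), the Wilcoxon test, other size factors and filters, summed rows, a clock gene score, a GC content trend (spline with 4 degrees of freedom, genes with a mean over 50 reads, GENCODE vM39 GC content for 12024 of 12030 genes), Trim63 for Fbxo32, and leaving out each mouse. Fits of 28 libraries without a block, of the spread without the GC trend, and without the 4 ADV mice of steepest GC trend or the 2 of highest Fbxo32 (also on Trim63), were added after seeing the data. The scripts were tested on simulated counts.

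Named genes were the 10 and Fbxo32, the genes with an FDR under 0.05 (at most 4) and the most abundant gene of each pathway list, the 2 most like genes of each, and an overlapping gene. Genes and lists were chosen with earlier results of these data known. Counts of a gene set the precision: the 10 genes had means from 1056 reads (Bnip3l in ADV mice) to 14490 (Sqstm1). The mice are separate animals, and no library pair of a group agreed within sampling noise (chi-square per degree of freedom at least 10.6).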

Additional observations from a re-analysis of the deposited data

How the results depend on the processing

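Of all genes, 251 passed FDR and fold between the schedules and 1306 passed the FDR alone. The counts were 166 and 602 after removal of the GC content trend, 109 and 356 without ADV mice 24, 25, 27 and 34, and 0 and 0 with the clock gene score in the fit, where 1580 genes had an unadjusted p under 0.05. limma on log2(FPKM + 1) gave 124 with FDR and fold. With the label number as a replicate block over 28 libraries they were 136 and 491, against 151 and 613 without the block. The numbers were not taken to pair the mice: the correlation of same-numbered mice ran from −0.26 to 0.43, was over 0.1 in 6 of 14 pairs, and was best for its own number in 3. Leaving out each mouse gave 188 (LD mouse 28) to 300 (ADV mouse 23), and 838 (LD mouse 28) to 1542 (ADV mouse 30). Unequal spread was called for 4 genes, for 0 with the clock gene score removed, 1 around the median, 1 without the 4 mice and 1 to 5 with each mouse left out. Slopes on Fbxo32 were called for 170 genes in ADV mice, 279 with the clock gene score, 47 without the 4 mice, 25 without mice 30 and 35 (24 on Trim63 without them), and 64 (without mouse 30; 74 without mouse 27) to 220 (without mouse 22) with each mouse left out. In LD mice they were 0, 496 on Trim63, and 0 to 1 with each mouse left out. No gene was called for a difference of slopes in any edgeR fit run (209 at an unadjusted p under 0.05), and no second tool was run on it. The cause of these shifts was not tested.

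Values whose sign turned were small log2 fold changes. Removal of the GC trend gave −0.041 for Map1lc3a, −0.021 for Map1lc3b, 0.016 for Bnip3, 0.053 for Ctsl, −0.045 for Tfeb and 0.029 for Vmp1. Without the 4 mice they were 0.042 for Ulk1, −0.00082 for Map1lc3b and 0.0039 for Bnip3. The clock gene score gave 0.039 for Ulk1, 0.028 for Ctsl, 0.027 for Atg9a, 0.046 for Rab7, 0.014 for Psap, 0.013 for Lamp1 and −0.107 for Fbxo32. limma gave 0.0049 and 0.0049 (pseudocounts 0.1 and 1) for Ulk1, 0.0059 and 0.0057 for Atg9a, 0.015 and 0.014 for Rab7, 0.0090 and 0.0090 for Psap, 0.0132 and 0.0131 for Lamp1, and −0.060 and −0.058 for Fbxo32. Ratios of medians beside the Wilcoxon test gave 0.071 for Rab7, 0.028 for Psap and −0.116 for Fbxo32. Library size alone gave 0.0072 for Ulk1, 0.0038 for Psap and 0.0080 for Lamp1, and the filter at 1 read 0.0038 for Ulk1 and 0.0057 for Lamp1. With the replicate block they were 0.00091 for Ulk1, 0.0013 for Rab7 and −0.013 for Fbxo32, and 0.0096 for Ulk1 without the block. The difference in spread turned to −0.015 for Map1lc3a without the GC trend, to −0.0057 for Map1lc3b on FPKM, and without the 4 mice to −0.0038 for Becn1, −0.0094 for Map1lc3b, −0.0092 for Ctsl and −0.017 for Tfeb. The ADV slope turned to 0.026 for Becn1 on Trim63, 0.016 for Becn1 without mice 30 and 35, 0.087 for Becn1 and 0.038 for Map1lc3a on Trim63 without them, and 0.025 for Ctsl without the 4 mice.

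With each mouse left out, the log2 fold change ran from −0.041 to 0.022 for Ulk1, −0.028 to 0.010 for Atg9a, −0.049 to 0.024 for Rab7, −0.017 to 0.011 for Psap, −0.013 to 0.0072 for Lamp1 and −0.054 to 0.129 for Fbxo32. The difference in spread ran from −0.00030 to 0.027 for Map1lc3b and −0.0057 to 0.031 for Ctsl. The slope for Becn1 ran from −0.061 to 0.018 in LD and −0.022 to 0.014 in ADV mice, and for Tfeb from −0.073 to 0.125 and −0.019 to 0.061. The difference of slopes ran from −0.055 to 0.046 for Ulk1, −0.019 to 0.060 for Becn1, −0.247 to 0.202 for Gabarapl1, −0.186 to 0.014 for Sqstm1, −0.178 to 0.084 for Bnip3, −0.041 to 0.056 for Bnip3l and −0.104 to 0.095 for Tfeb. With 14 and 16 mice, log2 fold changes of the 10 genes had SEs of 0.03 to 0.14.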
